A study of Homo sapiens with 3 samples.

Results

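SNORD58A, SNORD58B and SNORD58C are 3 box C/D small nucleolar RNAs (snoRNAs) that lie in introns of RPL17, the gene of a protein of the large ribosomal subunit. They were taken as the entries U58A, U58B and U58C of the deposited snoRNA read files, 3 of the 260 snoRNA entries with reads and 3 of the 147 box C/D entries, and all 3 had reads in all 3 libraries. The libraries hold small RNA of untreated HEK293 cells, an established human embryonic kidney line grown in DMEM with serum and antibiotics, and they form 1 group. RNA was extracted with phenol and chloroform, purified on magnetic beads for small RNA and sequenced after an Ion Total RNA-Seq Kit v2 preparation, per the labels' protocols. Nothing in the labels tells separate cultures from repeat preparations, so each p-value measures only how far these 3 libraries differ, a spread that may be technical.

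Box C/D snoRNAs hold a C box near the 5′ end and a D box (CTGA) near the 3′ end, which a short terminal stem brings together, and they are bound by fibrillarin, NOP56, NOP58 and SNU13. A guide stretch upstream of box D, or of its inner copy D′, pairs with a target RNA and directs fibrillarin to methylate 1 ribose there. Most human members are cut out of introns of host genes, which include genes of ribosomal proteins, other protein-coding genes and non-coding genes: the spliced intron is opened and trimmed by exonucleases up to the bound proteins, which sets the ends of the mature RNA. The SNORD58 copies are annotated as guides for methylation of the rRNA of the large ribosomal subunit.

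The reference sequences (GENCODE 29, GRCh38, minus strand of chromosome 18) are shown because the reads are described by their ends within them. Capitals mark the longest stretch that all 3 copies hold in common and the last CTGA, taken here as box D.
SNORD58A: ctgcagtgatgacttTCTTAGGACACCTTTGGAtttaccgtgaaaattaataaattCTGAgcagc
SNORD58B: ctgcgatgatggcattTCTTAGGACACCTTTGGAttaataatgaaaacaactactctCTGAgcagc
SNORD58C: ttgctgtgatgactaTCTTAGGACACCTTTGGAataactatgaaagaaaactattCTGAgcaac

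The copies are 65, 66 and 64 nt long and were alike over most of their length. Identity was 78.8% between SNORD58A and SNORD58B, 78.5% between SNORD58A and SNORD58C and 79.1% between SNORD58B and SNORD58C, over global alignments of 66, 65 and 67 columns. The shared stretch of 18 nt lies at positions 16 to 33 in SNORD58A and SNORD58C and at 17 to 34 in SNORD58B. SNORD58A and SNORD58B share a longer run of 22 nt around it, tttcttaggacacctttggatt. Each copy can form a perfect terminal stem that leaves 1 unpaired base at the 3′ end. In SNORD58A and SNORD58B it pairs ctgc with gcag (4 base pairs), and in SNORD58C ttgct with agcaa (5 base pairs). The innermost pair of SNORD58C takes in the last A of box D. Outside box D its stem is ttgc with gcaa, 4 base pairs as in the other copies. The first stem position is thus a C facing a G in SNORD58A and SNORD58B and a T facing an A in SNORD58C.

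SNORD58B lies at chr18:49491664-49491729, SNORD58A at chr18:49491283-49491347 and SNORD58C at chr18:49489245-49489308, in this order along RPL17. Of the 15 protein-coding RPL17 transcripts in GENCODE 29, SNORD58A was intronic in 15. SNORD58B was intronic in 10 and overlapped an exon in the other 5, and SNORD58C was intronic in the 9 that span it. From the 3′ end of the snoRNA to the next exon the distance was 79 nt for SNORD58B, 355 nt for SNORD58A and 678 nt for SNORD58C, the same in each transcript that holds it in an intron.

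All reads of the 3 entries ran in the sense direction. No read (0 in each library) covered a span whose reference sequence is found exactly in another copy. This holds for the reference sequence only, and reads with mismatches or gaps could not be judged. The files give read positions but not read sequences, and for the division of reads with mismatches between copies, no rule was given in the sources used here. The positions of SNORD58A and SNORD58B ended at the GENCODE length. In SNORD58C 1 read of library 3 ended at position 65, 1 base beyond GENCODE's 64 nt, so the authors' sequence appears to be longer. At which end is not known, and positions in SNORD58C are given as if both began at the same base.

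SNORD58C had the most reads of the 3 copies in every library. It had 311, 361 and 256 reads in libraries 1, 2 and 3, out of 19989, 11958 and 19092 snoRNA reads. These were 1.56% (exact Clopper-Pearson 95% interval 1.39% to 1.74%), 3.02% (2.72% to 3.34%) and 1.34% (1.18% to 1.51%) of the library. Library 2 stood above the other 2, whose intervals overlapped.

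SNORD58B had 168, 81 and 104 reads, which were 0.840% (0.719% to 0.977%), 0.677% (0.538% to 0.841%) and 0.545% (0.445% to 0.660%) of the library. SNORD58A had 100, 50 and 100 reads, which were 0.50% (0.407% to 0.608%), 0.418% (0.310% to 0.551%) and 0.524% (0.426% to 0.637%). SNORD58A varied 1.25-fold between libraries, SNORD58B 1.54-fold and SNORD58C 2.25-fold, beside a median of 1.70-fold over the 105 other box C/D entries with at least 10 reads in every library. Reads carry no molecular identifiers, so all intervals cover counting error only.

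**Figure D1:**
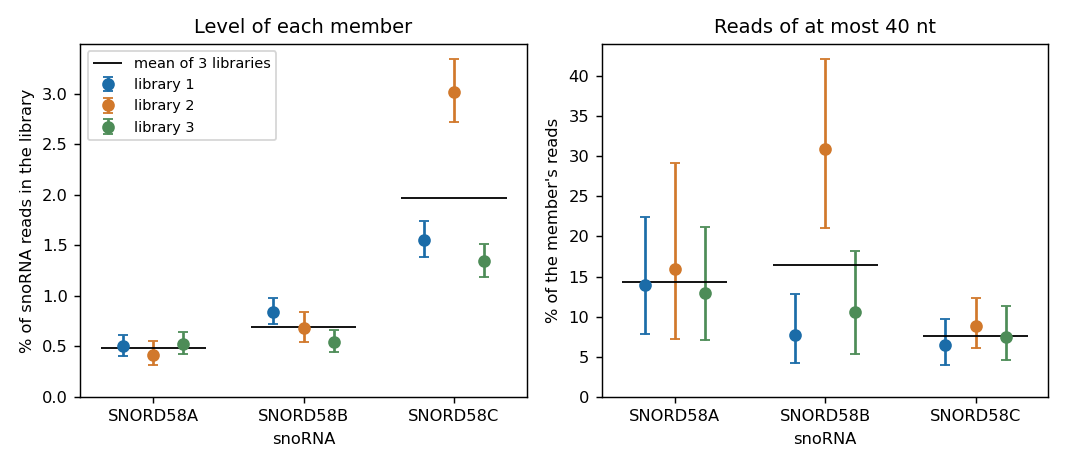
Left, share of all snoRNA reads (%) taken by each SNORD58 copy; right, share of each copy's reads that had at most 40 nt (%). Points are single libraries with exact 95% binomial intervals and lines are means of 3 libraries; SNORD58C lies above both other copies in all 3 libraries (1.34% to 3.02%), and SNORD58B in library 2 has 30.9% short reads.

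The mean share was 1.97% ± 0.91 for SNORD58C, 0.688% ± 0.15 for SNORD58B and 0.481% ± 0.055 for SNORD58A (SD, n = 3 each). These copies ranked 13, 41 and 52 among the 147 box C/D entries, whose median share was 0.332%. Because their lengths differ by at most 2 nt, the 3 copies were compared without a correction for length. Whether the library preparation captured the 3 copies equally well was not tested. SNORD58C had 3.11, 7.22 and 2.56 times the reads of SNORD58A and 1.85, 4.46 and 2.46 times those of SNORD58B. With 0.5 added to each count, the mean log2 ratio was 1.94 ± 0.79 against SNORD58A and 1.44 ± 0.64 against SNORD58B (SD, n = 3), and the intervals of SNORD58C did not overlap with those of either in any library.

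SNORD58B and SNORD58A were closer to each other. SNORD58B had 1.68, 1.62 and 1.04 times the reads of SNORD58A, a mean log2 ratio of 0.50 ± 0.38 (SD, n = 3). Their intervals were apart in library 1 and overlapped in libraries 2 and 3, so these neighbours in the order did not differ beyond counting error in each library. All 3 ratios had the same direction in 3 of 3 libraries, and a two-sided exact permutation test that flips signs gave p = 0.25, which is the lowest value possible with 3 libraries, or 0.333 after Benjamini-Hochberg adjustment over the 12 such tests run on the family. The test could therefore not reach 0.05. With each distinct record counted once, the log2 ratio of SNORD58B to SNORD58A was 0.043.

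Together the copies took 2.90%, 4.11% and 2.41% of the snoRNA reads (579, 492 and 460 reads), a mean of 3.14% ± 0.88 (SD, n = 3). SNORD58C made up 53.7%, 73.4% and 55.7% of the family, SNORD58B 29%, 16.5% and 22.6%, and SNORD58A 17.3%, 10.2% and 21.7%. The higher family level in library 2 was that of SNORD58C, since SNORD58A and SNORD58B did not have their highest share there. Library 2 was also the library with the most short reads on other box C/D entries, 25.8% of at most 40 nt against 11.6% and 11.5%, and the part of this in the level of SNORD58C was not tested.

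A second deposited table of counts lists 100, 168 and 311 reads for SNORD58A, SNORD58B and SNORD58C in library 1, the same as the sums over the records of that library.

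SNORD58 was set beside 3 other families of 3 copies within 1 host gene. The highest copy had 3.11, 7.22 and 2.56 times the reads of the lowest in SNORD58 in libraries 1, 2 and 3, always SNORD58C over SNORD58A. The same ratio was 3.29, 1.43 and 2.41 in SNORD36 of RPL7A, where SNORD36B led in libraries 1 and 2 and SNORD36A in library 3. It was 1.85, 2.92 and 1.52 in SNORD18 of RPL4 and 9.51, 6.78 and 5.66 in SNORD45 of RABGGTB, so the spread in SNORD58 was above that of SNORD45 in library 2 only and below that of SNORD36 in library 1. By means over libraries, the ratio of the highest to the lowest mean share was 4.10 in SNORD58 (SNORD58C to SNORD58A), 1.78 in SNORD18 (SNORD18A to SNORD18C) and 7.40 in SNORD45 (SNORD45A to SNORD45B). In SNORD36 it was 1.10 (SNORD36B to SNORD36C), a mean over libraries in which the order of the copies changed. These values are a description without a test, and a ratio between the highest and the lowest copy is at least 1 by construction.

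**Figure D2:**
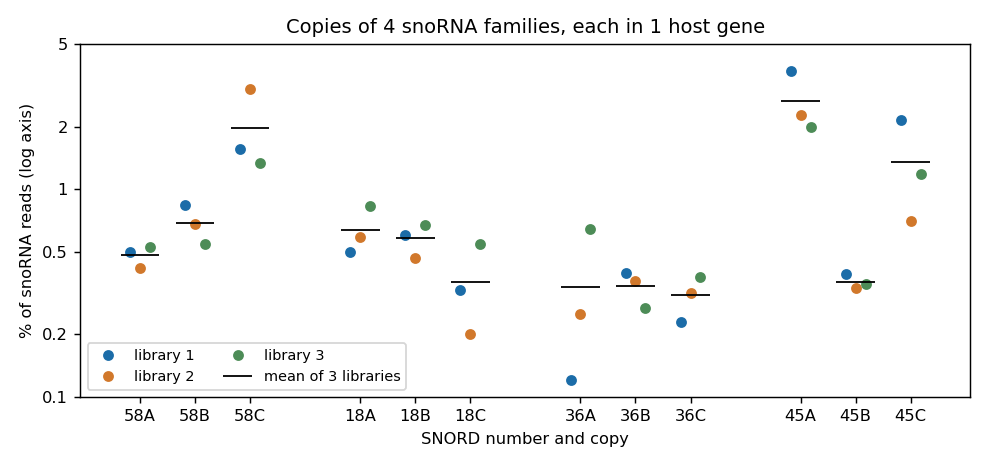
Share of all snoRNA reads (%, log axis) for each copy of the SNORD58, SNORD18, SNORD36 and SNORD45 families. Points are single libraries and lines are means of 3 libraries; the highest mean share is 4.10 times the lowest in SNORD58 and 7.40 times in SNORD45.

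Of 33 other box C/D snoRNAs listed as lying in genes of ribosomal proteins, 33 had reads, with a median mean share of 0.636%. SNORD58C was exceeded by 4 of them, SNORD58B by 15 and SNORD58A by 18. The 4 were SNORD100 (3.14%), SNORD42B (2.73%), SNORD24 (2.50%) and SNORD38B (2.48%). The list, used again below for read size and position, may not hold every box C/D snoRNA of such genes.

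By level in the 3 libraries, SNORD58A was most like SNORD20, with 0.535%, 0.393% and 0.539% and a root mean square difference of 0.080 in log2 share, then HBII_82B (0.22) and SNORD42A (0.25). SNORD58B was most like SNORD4A (0.24), SNORD91A (0.26) and SNORD52 (0.40). SNORD58C had no equally close match: SNORD73A, the nearest, differed by 0.46, with 1.68%, 1.86% and 1.74%, followed by SNORD98 (0.46) and SNORD63 (0.52). These measures rest on 3 libraries each, and all entries of a library share its depth.

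Most SNORD58 reads were near full length, spanning at least 90% of the entry. The share was 81.0%, 82.0% and 78.0% for SNORD58A, 88.7%, 65.4% and 84.6% for SNORD58B, and 86.5%, 82.5% and 83.6% for SNORD58C. SNORD58B in library 2 was the low value, and its interval (54.0% to 75.7%) lay below those of SNORD58B in libraries 1 and 3. Over the reads of all other box C/D entries the share was 69.7%, 56.5% and 67.3%, so library 2 was low there too. The means of SNORD58A, SNORD58B and SNORD58C were 80.3% ± 2.1, 79.6% ± 12 and 84.2% ± 2.0 (SD, n = 3). The median was 69.1% over the 105 other box C/D entries with at least 10 reads in every library, and 30, 33 and 14 of these entries were higher. This median and these ranks also depend on the length taken for each entry, the highest position seen. SNORD69 and SNORD4B, for example, had 0.158% and 1.27% near full-length reads but only 5.66% and 8.53% of at most 40 nt. SNORD58C exceeded SNORD58A by 3.88 ± 2.9 percentage points (SD, n = 3; 3 of 3 libraries, exact permutation p = 0.25), but by 0.20 with each distinct record counted once (p = 1.0) and by 1.61 at a span of 95% (p = 0.5). SNORD58B differed from SNORD58A by -0.754 ± 14 and SNORD58C from SNORD58B by 4.63 ± 11, with mixed directions and exact permutation p = 1.0. Without library 2 the last 2 differences turned to 7.15 and -1.61 percentage points.

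Near full-length reads began at the annotated first base in most cases. Position 1 was the start of 176 of 200 such reads of SNORD58A (88.0%), 282 of 290 of SNORD58B (97.2%) and 730 of 781 of SNORD58C (93.5%), over all libraries. Position 2 came next for SNORD58A, with 20 reads (10.0%), and for SNORD58C, with 40 reads (5.12%), while SNORD58B had 3 reads there (1.03%). Over reads of every length, 81.0%, 83.4% and 86.4% started at position 1 (means of 3 libraries), beside a median of 7.22% in the other entries, a value that also depends on where each entry's sequence was taken to begin.

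The 3′ ends fell on 2 neighbouring bases, 4 and 5 nt after box D, and the copies used them unequally. These ends made up 191 of 200 near full-length reads of SNORD58A (95.5%), 282 of 290 of SNORD58B (97.2%) and 703 of 781 of SNORD58C. The end 4 nt after box D is the last base of the terminal stem, and the end at 5 nt adds the unpaired C.

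SNORD58A kept this last C in 54.3%, 53.7% and 47.4% of its near full-length reads in libraries 1, 2 and 3. SNORD58B kept it in 41.6%, 24.5% and 44.3%. SNORD58C kept it in 11.2% (7.65% to 15.5%), 11.4% (8.03% to 15.6%) and 8.41% (5.06% to 13.0%). SNORD58C was thus below both other copies in every library, and its values differed little between libraries.

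The mean share with the last C was 51.8% ± 3.8, 36.8% ± 11 and 10.3% ± 1.7 in SNORD58A, SNORD58B and SNORD58C (SD, n = 3). The difference of SNORD58C was -41.5 ± 2.2 percentage points from SNORD58A and -26.5 ± 12 from SNORD58B (SD; lower in 3 of 3 libraries each). That of SNORD58B from SNORD58A was -15.0 ± 13 percentage points, also lower in 3 of 3 libraries, but -3.12 in library 3, -7.91 without library 2 and -9.12 with each distinct record counted once (exact permutation p = 0.5). All 3 differences had exact permutation p = 0.25 (0.333 adjusted), and this measure was chosen after its values were seen. The intervals of SNORD58A (lowest bound 36.0%) and SNORD58C (highest bound 15.6%) did not overlap in any library, and those of SNORD58B and SNORD58C overlapped in library 2, where SNORD58B had 53 such reads and an interval of 13.8% to 38.3%.

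SNORD58C ended on the last stem base in 79.9%, 79.5% and 79.0% of these reads and 1 base earlier in 6.32%, 6.38% and 10.3%. If the authors' SNORD58C sequence began at another base than GENCODE's, its distances from box D would shift together. The concentration on 1 end would stay. A shift of 1 base would move the main end of SNORD58C off the last stem base and change its differences from the other copies. No alternative shifted these positions.

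**Figure D3:**
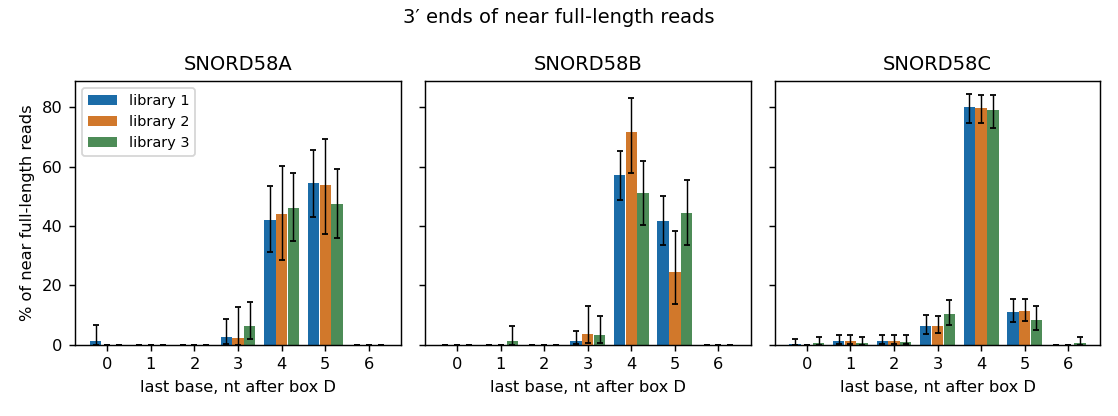
Last base of near full-length reads, in nt after the last base of box D, as % of those reads for each copy and library. Bars are single libraries with exact 95% binomial intervals; SNORD58A is divided between 4 and 5 nt (44.0% and 51.8% on average), while 79.5% of SNORD58C reads end at 4 nt.

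Of 35 other box C/D entries with at least 10 reads in every library, whose highest position equalled the GENCODE length and whose last CTGA began within 14 nt of the end, the commonest end was 4 nt after it in 12, 5 nt in 12, 2 nt in 9, and 3 and 10 nt in 1 each, the last being SNORD69 with 2 near full-length reads (named after its values were seen). In 22 of the 35 the commonest end was the last annotated base, beyond which no read could end, and 14 are annotated with under 5 nt after box D. Of the 14 annotated with 5 nt, as the SNORD58 copies are, the commonest end was 5 nt in 8, 4 nt in 3 and 2 nt in 3. It held a median of 72.6% of the near full-length reads, pooled over libraries (40.1% to 92.6%). The commonest ends of SNORD58A, SNORD58B and SNORD58C held 51.5%, 57.9% and 79.5%, pooled likewise. No test was made of this.

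The commonest single reads show the same ends. For SNORD58A they ran from 1 to 65 (36, 19 and 26 reads) and from 1 to 64 (22, 13 and 29 reads), so that neither form led in all libraries. For SNORD58B they ran from 1 to 65 (72, 34 and 41 reads) and from 1 to 66 (52, 12 and 34 reads), with the shorter form ahead in each library. For SNORD58C the read from 1 to 63 had 174, 186 and 149 copies, against 26, 31 and 15 from 1 to 64 and 13, 14 and 16 from 1 to 62.

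A read length unlike the span it covers, taken here as a gapped alignment, was found in 20, 4 and 20 reads of SNORD58A, 26, 7 and 10 of SNORD58B and 55, 58 and 36 of SNORD58C. In SNORD58C 86 of 928 reads were 1 nt longer than their span and 7 were 1 nt shorter. The mean shares of 16.0%, 11.2% and 15.9% of the copy's reads stand beside a median of 19.6% over the other entries. An end within such a read is placed by the alignment, and the direction of each pairwise difference in 3′ ends was the same without these reads.

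Short reads, of at most 40 nt, were a minority of each copy. SNORD58A had 14, 8 and 13 (14%, 16% and 13% of its reads), SNORD58B 13, 25 and 11 (7.74%, 30.9% and 10.6%), and SNORD58C 20, 32 and 19 (6.43%, 8.86% and 7.42%). SNORD58B in library 2 was far above its other values, and its mean of 16.4% ± 13 (SD, n = 3) was 9.16% without that library. The other box C/D entries also had their highest short share in library 2, 25.8% against 11.6% and 11.5% in libraries 1 and 3. SNORD58C had a mean of 7.57% ± 1.2 and SNORD58A of 14.3% ± 1.5 (SD, n = 3). The difference of SNORD58C was -6.76 ± 1.0 percentage points from SNORD58A and -8.82 ± 11 from SNORD58B (SD; lower in 3 of 3 libraries each, exact permutation p = 0.25). Without library 2 the latter was -2.23, and with each distinct record counted once the differences were -12.3 and -19.4. The difference between SNORD58B and SNORD58A, 2.06 ± 11 percentage points, had mixed directions (exact permutation p = 1.0) and turned to -4.34 without library 2. Reads over 40 nt that were not near full length numbered 15, 14 and 76 for SNORD58A, SNORD58B and SNORD58C. They were 6.0%, 3.97% and 8.19% of the reads pooled over libraries, highest in SNORD58C, and were not tested.

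Set against all snoRNAs, SNORD58C had fewer short reads for its longer ones than is typical. In an edgeR quasi-likelihood fit over the 125 entries with at least 10 reads in every library, normalised with TMM so that the ratio is relative to the other snoRNAs, its log2 ratio of short to longer reads was -1.10 ± 0.36 (SE, edgeR adjusted p = 0.00737). In that fit 18.4% of the entries were called for fewer and 24% for more short reads (42.4% in either direction), so such calls were common. SNORD58A (-0.023 ± 0.47) and SNORD58B (-0.049 ± 0.41) were not called, with edgeR adjusted p of 0.976 and 0.932. The call of SNORD58C was lost without library 2 (-0.86, edgeR adjusted p = 0.195), without library 3 (-1.20, 0.0982) and with a limit of 30 nt (-0.83, 0.104). Among box C/D snoRNAs of ribosomal protein genes 7 of 27 were called for fewer and 3 for more short reads, with a median log2 ratio of -0.38, beside 20 and 25 of all 108 box C/D entries with a median of -0.053.

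Nearly all short reads lay at 1 of the 2 ends of the snoRNA. Whether the copies differed in which end was not tested. Of the SNORD58C short reads, 14 of 20, 19 of 32 and 15 of 19 began within the first 3 bases, and 3, 11 and 3 ended at most 3 nt before the last base of the reference. For SNORD58A the 5′ reads were 10 of 14, 4 of 8 and 4 of 13 and the 3′ reads 4, 4 and 9, so that the leading end changed between libraries. For SNORD58B the 5′ reads were 8 of 13, 4 of 25 and 5 of 11 and the 3′ reads 5, 20 and 5, so that the surplus of short SNORD58B reads in library 2 came from the 3′ end. Pooled over libraries, 67.6% of the SNORD58C short reads were at the 5′ end (95% interval 55.5% to 78.2%), against 34.7% for SNORD58B (21.7% to 49.6%) and 51.4% for SNORD58A (34.0% to 68.6%), whose interval overlaps that of SNORD58C. Without library 2, which held 25 of the 49 short SNORD58B reads, the shares were 74.4% (57.9% to 87.0%), 54.2% (32.8% to 74.4%) and 51.9% (31.9% to 71.3%) for SNORD58C, SNORD58B and SNORD58A, with intervals that all overlap.

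**Figure D4:**
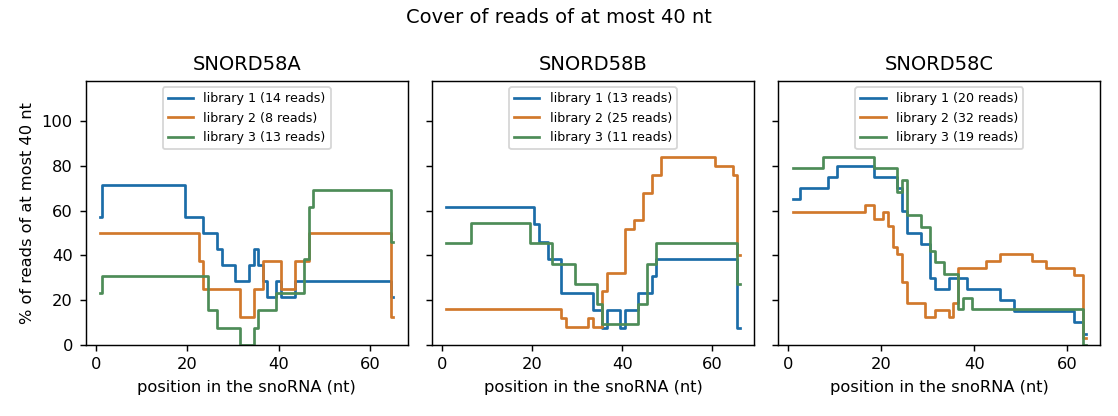
Share of the reads of at most 40 nt (%) that cover each position of the snoRNA, with 1 line per library and the number of reads in the legend. SNORD58C short reads lie mostly in the 5′ part in all 3 libraries, and 20 of the 25 short SNORD58B reads of library 2 lie at the 3′ end.

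The 3 commonest short reads of each copy (ties taken by position) are shown with box D, where they hold it, in capitals, since they show where the 5′ and 3′ pieces stop.
SNORD58C 1 to 25: ttgctgtgatgactatcttaggaca
SNORD58C 1 to 24: ttgctgtgatgactatcttaggac
SNORD58C 37 to 63: actatgaaagaaaactattCTGAgcaa
SNORD58B 41 to 65: atgaaaacaactactctCTGAgcag
SNORD58B 1 to 26: ctgcgatgatggcatttcttaggaca
SNORD58B 45 to 66: aaacaactactctCTGAgcagc
SNORD58A 47 to 64: ttaataaattCTGAgcag
SNORD58A 1 to 23: ctgcagtgatgactttcttagga
SNORD58A 1 to 26: ctgcagtgatgactttcttaggacac

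The SNORD58C read from 1 to 25 had 2, 3 and 3 copies, that from 1 to 24 had 2, 4 and 0, and that from 37 to 63 had 1, 5 and 0. The SNORD58B read from 41 to 65 had 1, 5 and 0 copies, and those from 1 to 26 and 45 to 66 had 2, 1 and 0 and 0, 3 and 0. The SNORD58A reads had 0, 1 and 2, 1, 1 and 0 and 1, 0 and 1 copies. The 5′ pieces in this set stop inside the shared stretch, and the 3′ pieces start after it. For SNORD58A this depends on how ties were taken, since a read from 1 to 40, also with 2 copies, runs through that stretch. Only 5 of 35, 6 of 49 and 9 of 71 short reads of SNORD58A, SNORD58B and SNORD58C covered the whole shared stretch, which a read of the shortest sizes can do only if it lies over it.

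Reads of 20 to 24 nt, the size of miRNAs, numbered 2, 3 and 4 for SNORD58A, 4, 5 and 4 for SNORD58B and 6, 11 and 3 for SNORD58C. They were 4.0% ± 2.0, 4.13% ± 1.9 and 2.05% ± 0.94 of the copy's reads (SD, n = 3), beside a median of 2.78% over the other entries, of which 34, 33 and 71 were higher. Each of these values rests on 11 reads or fewer per library.

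By the midpoint of each read, all 3 copies had more reads centred before the middle of the snoRNA than after it. The counts before and after the middle were 44 and 7, 18 and 7, and 49 and 11 for SNORD58A, and 93 and 13, 43 and 25, and 56 and 8 for SNORD58B. For SNORD58C they were 295 and 15, 327 and 32, and 239 and 14. In an edgeR quasi-likelihood fit over 108 entries with at least 10 placed reads in every library, the log2 ratios of 3′ to 5′ reads were -2.07 ± 0.44, -2.08 ± 0.49 and -3.87 ± 0.34 (SE), with edgeR adjusted p of 0.00653, 0.00949 and 0.00048 and the same direction in 3 of 3 libraries each. In that fit 39.8% of entries were called for more 5′ reads and 26.9% for more 3′ reads (66.7% in either direction), and 11 of 26 box C/D snoRNAs of ribosomal protein genes were called in each direction.

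Most of the reads counted as 5′ were near full length: 80 of 111 in SNORD58A, 170 of 192 in SNORD58B and 770 of 861 in SNORD58C. Of the reads counted as 3′, 7 of 25, 5 of 46 and 7 of 61 were near full length. Without near full-length reads SNORD58A had 31 reads before the middle and 18 after it and SNORD58C 91 and 54, whereas SNORD58B had 22 and 41, the opposite direction. Another 114, 115 and 6 reads were centred on the middle and counted as neither. For SNORD58C the length was taken as 65, so its reads from 1 to 64 counted as 5′ and not as centred. A read from the first base that lacks bases only at its 3′ end has its midpoint before the middle, so these ratios count the 3′ ends described above as well as fragments. With the reference length of 64 nt in place of 65, the log2 ratio of SNORD58C was -3.52. With a library size for each part, the split of calls was 32 for 5′ and 44 for 3′ instead of 43 and 29, the log2 ratios moved by a median of 0.94, and the call of SNORD58A was lost (-1.13, edgeR adjusted p = 0.0725). The edgeR adjusted p of SNORD58A was also above 0.05 when library 1 (0.0630) or library 3 (0.0652) was left out, as was its DESeq2 adjusted p (0.0891). That of SNORD58B was 0.0619 when library 3 was left out.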

How the data were processed

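Small RNA reads on snoRNAs were analysed in 3 libraries of HEK293 cells. The authors deposited, per the file headers, raw counts of reads per record, a record being a snoRNA entry, a read length and the first and last position. The submitters' processing notes name GRCh38.p10. For the aligner, trimming and filters, no details were given in the sources used here. In a second deposited table of counts, 2 columns that fit no sample's title were left out. Names came from a RefSeq gene table (GRCh38.p14), and sequences and coordinates from GENCODE 29. An entry's length was the highest position seen. HBII_82B matched no single symbol and kept the file's name.

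Libraries 1 to 3, in accession order, held 19989, 11958 and 19092 counts, so that 0 counts allow up to 0.0150%, 0.0251% and 0.0157% (floor of 3 counts). Copies were compared in pairs by an exact two-sided permutation of signs. Position and read size were tested in edgeR 4.0.16 by quasi-likelihood, blocking on the library (adjusted p under 0.05), and both fits were also run on simulated counts. DESeq2 1.42.0 was an alternative. Other software was Biopython 1.88, SciPy 1.17.1, NumPy 2.4.6, pandas 2.3.3 and matplotlib 3.10.9, under Python 3.11.15 and R 4.3.3. Alignments scored 1 for a match, -1 for a mismatch, -2 to open and -1 to extend a gap.

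The members and lists were chosen with earlier results of these data known. Named items were the 3 copies, their 3 commonest near full-length and short reads without gaps, the 3 box C/D snoRNAs most alike in level and the 2 lists. The snoRNAs above SNORD58C in the list were named after their values were seen. Other alternatives were another pseudocount, other size and span limits, distinct records, reads without gaps, leaving out each library, and, chosen after seeing the data, the reference length in the position test all those for the 3′ ends, short-read ends without library 2 and read position without near full-length reads.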

Additional observations from a re-analysis of the deposited data

How the results depend on the processing

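The direction of each level ratio between the copies and of each difference in 3′ ends was the same under every alternative run for them, including each library left out. None of these alternatives shifted the positions of SNORD58C. Without single libraries the difference in near full-length share ranged from -4.98 to 7.15 percentage points for SNORD58B against SNORD58A and from -1.61 to 8.05 for SNORD58C against SNORD58B, and the difference in short share from -4.34 to 6.22 for SNORD58B against SNORD58A, with library 2 turning the sign in each. In the edgeR fits, single libraries left out gave 28 to 62 entries with more 5′ reads and 2 to 15 with fewer short reads, against 43 and 23. DESeq2 gave 28 entries with more 5′ reads, a library size for each part gave 44 with more 3′ reads against 29, and a limit of 30 nt gave 11 with fewer short reads. The log2 ratio of short to longer reads, near 0 in 2 copies, ranged from -0.20 to 0.21 for SNORD58A without single libraries (0.21 without library 2) and was 0.23 with the limit of 30 nt. For SNORD58B it ranged from -0.45 to 0.24 (0.24 without library 1, 0.081 without library 3) and was 0.34 with that limit. The cause of these changes was not tested. Leaving out reads on the opposite strand or with a span found in another copy changed nothing, since there were 0 of either. All comparisons of copies were made within each library, and both edgeR fits block on it. No paired analysis was possible because, between groups of samples, replicate numbers have nothing to pair: there is 1 group. With 50 to 361 reads per copy and library, shares of short reads rest on 8 to 32 reads.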
